A study of Mus musculus with 4 samples.

Results

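Chlorpromazine and thioridazine, the 2 phenothiazines among 4 antipsychotic drugs given to mice, were set against each other gene by gene. The pair was chosen because both drugs carry the phenothiazine ring and were injected at 1 dose, 25 mg/kg. Male ddY mice, an outbred stock, were 13 weeks old and received 1 intraperitoneal injection daily over 28 days, and RNA of their frontal cortex was hybridised to dual-colour Agilent mouse oligonucleotide arrays. There were 4 arrays, 1 per drug. The other drugs were olanzapine, at a dose of 1.25 mg/kg, and quetiapine, at 18.75 mg/kg. The drugs were in dilute acetic acid in saline, and controls were injected with vehicle. On each array the vehicle RNA carried cyanine 3 and the drug RNA cyanine 5, with no dye swap. The number of mice behind each RNA, and whether the same vehicle RNA served on several arrays, are not given in the sources used here.

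Each value below is a log2 ratio of drug over vehicle on 1 array, and each difference is the chlorpromazine ratio minus the thioridazine ratio. A positive difference therefore marks a gene that was higher with chlorpromazine than with thioridazine, both relative to vehicle. Where the 2 arrays used the same vehicle RNA it cancels in the difference, and where they did not the difference also holds that between the vehicle RNAs. With 1 array per drug no difference has a replicate check, a standard error, an interval or a p-value, and drug and array cannot be told apart. The log10 scale and the drug over vehicle direction of the deposited values are likely and not stated. With the direction reversed every sign below would turn, and with values already in log2 every fold would be smaller. The table holds no signal intensities, so levels, the identity of the tissue by its markers and the brightness behind a ratio could not be examined. In RNA of whole tissue, fewer cells of a type and less RNA per cell cannot be told apart.

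Phenothiazines are tricyclic compounds that block dopamine D2 receptors, and to differing degrees serotonin, histamine H1, muscarinic and alpha-1 adrenergic receptors. Chlorpromazine carries a chlorine on the ring and an open-chain dimethylaminopropyl side chain. Thioridazine carries a methylthio group in its place and a side chain that ends in a piperidine ring. In humans thioridazine is known for its block of the cardiac potassium channel hERG and for its breakdown by CYP2D6.

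Of 16504 genes with a ratio on at least 1 array of the series, 16266 were measured with both phenothiazines. The difference had a median of -0.02 and a standard deviation over genes of 0.47, and its central quartiles ran from -0.19 to 0.20. At least 2-fold apart were 712 genes, or 4.38% of those measured. Of them 405 (2.49%) were higher with chlorpromazine and 307 (1.89%) were higher with thioridazine. Differences of 4-fold or more numbered 94 on the chlorpromazine side and 24 on the thioridazine side. At 8-fold or more the counts were 20 and 6.

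The thioridazine array had the wider ratios. Their standard deviation over genes was 0.47, against 0.32 with chlorpromazine. At least 2-fold from vehicle were 738 of 16327 genes (4.52%) with thioridazine, 323 above it and 415 below. With chlorpromazine there were 277 of 16359 (1.69%), 130 above and 147 below. Among the 712 genes that separated the drugs, 382 were 2-fold from vehicle with thioridazine alone and 82 with chlorpromazine alone. A further 226 were 2-fold from vehicle on neither array, 13 were so on both in opposite directions, and 9 on both in the same direction. The largest of the single groups, 232 genes, was at least 2-fold below vehicle with thioridazine and less than 2-fold from vehicle with chlorpromazine. Spots of the same accession also varied more on the thioridazine array. The array repeats 48 accessions on at least 10 spots, and the spot-to-spot standard deviation had a median of 0.16 with thioridazine, 0.06 with chlorpromazine and 0.17 in the difference. In the difference it ran from 0.05 to 1.05 over the accessions. The widest was that of Cep41, at 1.06 with thioridazine and 0.15 with chlorpromazine. For some accessions the spots thus varied by about the 2-fold threshold itself. With both arrays scaled to 1 spread, the counts from vehicle were 528 for chlorpromazine and 467 for thioridazine, so the order of the drugs in this count turned. The count of genes at least 2-fold apart was then 710.

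**Figure D1:**
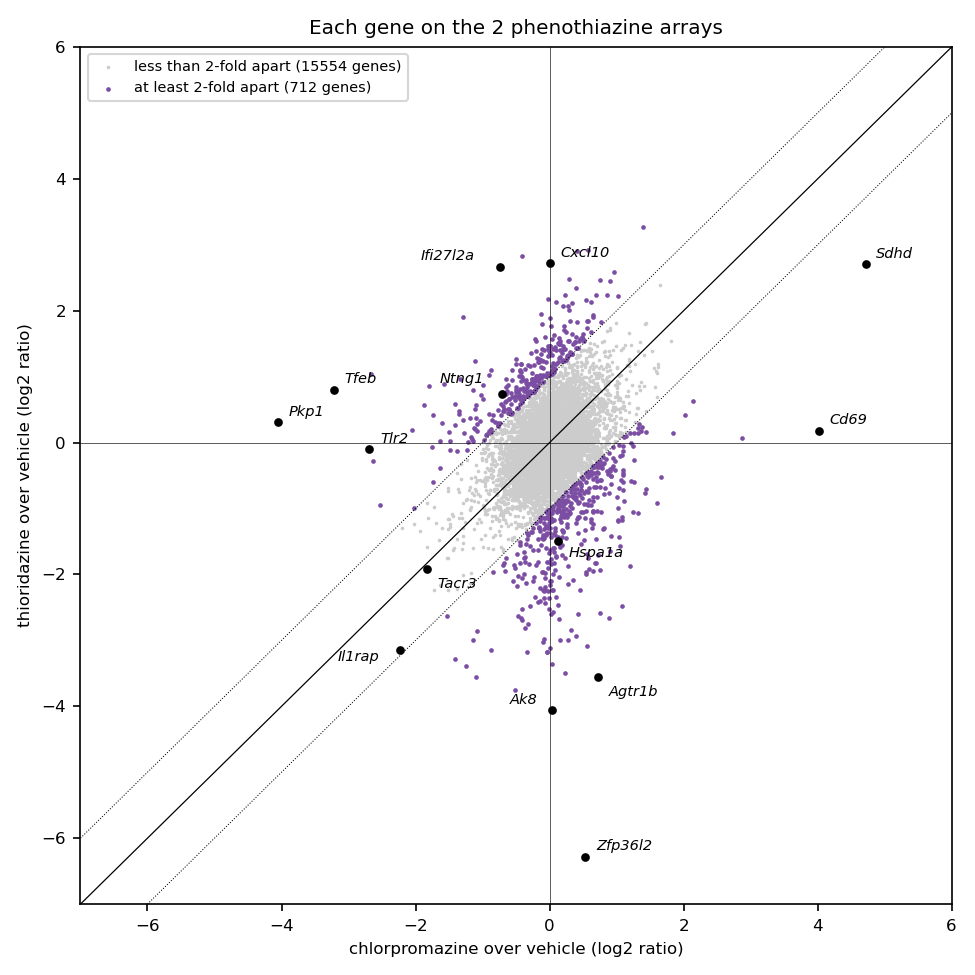
Each point is 1 of 16266 genes, with the log2 ratio over vehicle with chlorpromazine on the horizontal axis and with thioridazine on the vertical axis. Purple points are the 712 genes at least 2-fold apart, outside the dotted lines, and the vertical spread (standard deviation 0.47) is wider than the horizontal spread (0.32).

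Repeated features of a gene gave the differences that were measured more than a single time. Among 1141 genes with 2 or more features on both arrays, 23 (2.02%) were at least 2-fold apart, against 689 of 15125 genes (4.56%) with 1 feature. In 18 of the 23 all features lay on 1 side of 0. In 3 genes every feature was at least 2-fold apart. The first was Traf6, an adaptor that links Toll-like and interleukin-1 receptors to NF-kappaB, at 0.52 with chlorpromazine and -0.93 with thioridazine, with feature differences of 1.05 and 1.83. The second was Ube2s, an E2 enzyme of the anaphase-promoting complex, at -1.36 and 0.49, with feature differences of -2.16 and -1.52. The third was the pseudogene Ppp4r1l-ps, at 0.63 and -1.30, with 1.80 and 2.07. Each of the 3 lay on opposite sides of vehicle with the 2 drugs.

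Further genes with agreeing features included both neuronal and vascular products. Scn1a, the sodium channel Nav1.1 that is mutated in human Dravet syndrome, stood at 0.16 with chlorpromazine and -1.58 with thioridazine, a difference of 1.75. Its 2 features measured on both arrays differed by 0.97 and 1.95, with a mean of 1.46. The gene ratios also hold values present on 1 array only, so the 1.75 does not rest on those 2 features alone. Hmgb1, a chromatin protein that acts as a danger signal outside the cell, stood at 0.70 and -0.37. Mgst3, a microsomal glutathione S-transferase, stood at 0.34 and -0.68. All 3 were higher with chlorpromazine. On the thioridazine side were Sympk, a scaffold of the messenger RNA 3' processing machinery, at -0.42 and 0.69, and Vwf, the von Willebrand factor of endothelium, at 0.44 and 1.32. The difference was -1.11 for Sympk and -0.88 for Vwf.

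The widest differences rested on 1 feature each. Zfp36l2, which encodes a protein that binds AU-rich messenger RNA, had a ratio of 0.53 with chlorpromazine and -6.28 with thioridazine, a difference of 6.81. Its ratio was 3.08 with olanzapine and 0.62 with quetiapine. Of the 2 phenothiazine values the thioridazine value was the one far from vehicle, and the same form held for Agtr1b, an angiotensin II receptor (0.73 and -3.55), and Ak8, an adenylate kinase (0.03 and -4.05). It held as well for Cd163, the haptoglobin-haemoglobin scavenger receptor of perivascular macrophages (0.23 and -3.49), Krtcap3 (0.55 and -3.08) and Ppp6r2, a regulatory subunit of protein phosphatase 6 (0.04 and -3.36). For Cd69, an early activation antigen of lymphocytes, the chlorpromazine array was the high one, at 4.02 against 0.18, with 0.01 for olanzapine and -1.26 for quetiapine. Dpep1, a renal dipeptidase, stood at 1.08 and -2.48, Upp1, uridine phosphorylase, at 0.88 and -2.66, and Fndc8 at 0.75 and -2.59. These 3 were on opposite sides of vehicle with the 2 drugs, as were Zfp36l2 and the genes given as of its form.

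At the other end, Pkp1, a desmosomal plaque protein, had a ratio of -4.05 with chlorpromazine and 0.31 with thioridazine. Tfeb, the master transcription factor of lysosome formation, stood at -3.22 and 0.80, with 0.24 for olanzapine and 3.15 for quetiapine. Tlr2, the receptor for bacterial lipopeptides, stood at -2.69 and -0.10. In these genes the chlorpromazine value was the one far from vehicle. In others it was the thioridazine value: Ifi27l2a, an interferon-induced mitochondrial protein, stood at -0.74 and 2.67, Ly6g6e at -0.41 and 2.83, Cxcl10 at 0.00 and 2.72, and Sp5, a transcription factor downstream of Wnt, at 0.41 and 2.90. Mri1, an enzyme of methionine salvage, at -1.29 and 1.90, Zc3h6 at -1.80 and 0.86, and Ppp1r37 at -1.57 and 0.89 were below vehicle with chlorpromazine and above it with thioridazine.

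Genes were then read in 44 lists by function or cell type. Apart from a list of 844 sensory receptors, 43 lists were described by their median difference, and 5 of these had a median beyond 0.25 in either direction, against -0.02 over all genes. In all 5 the median was negative: microglia and macrophage markers, interferon-stimulated genes, genes of the major histocompatibility complex (MHC), neutrophil granule genes and cortical neuropeptides. The other 38 medians lay between -0.16 and 0.19, with the heat shock and unfolded protein response list highest. Which lists lie beyond 0.25 depends on the measure. With the arrays scaled, cholesterol synthesis joined them at -0.26. By the mean, heat shock (0.33) and acute-phase genes (-0.36) lay beyond it and neuropeptides (-0.20) did not, so the side was then not the same for all. No list was tested.

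**Figure D2:**
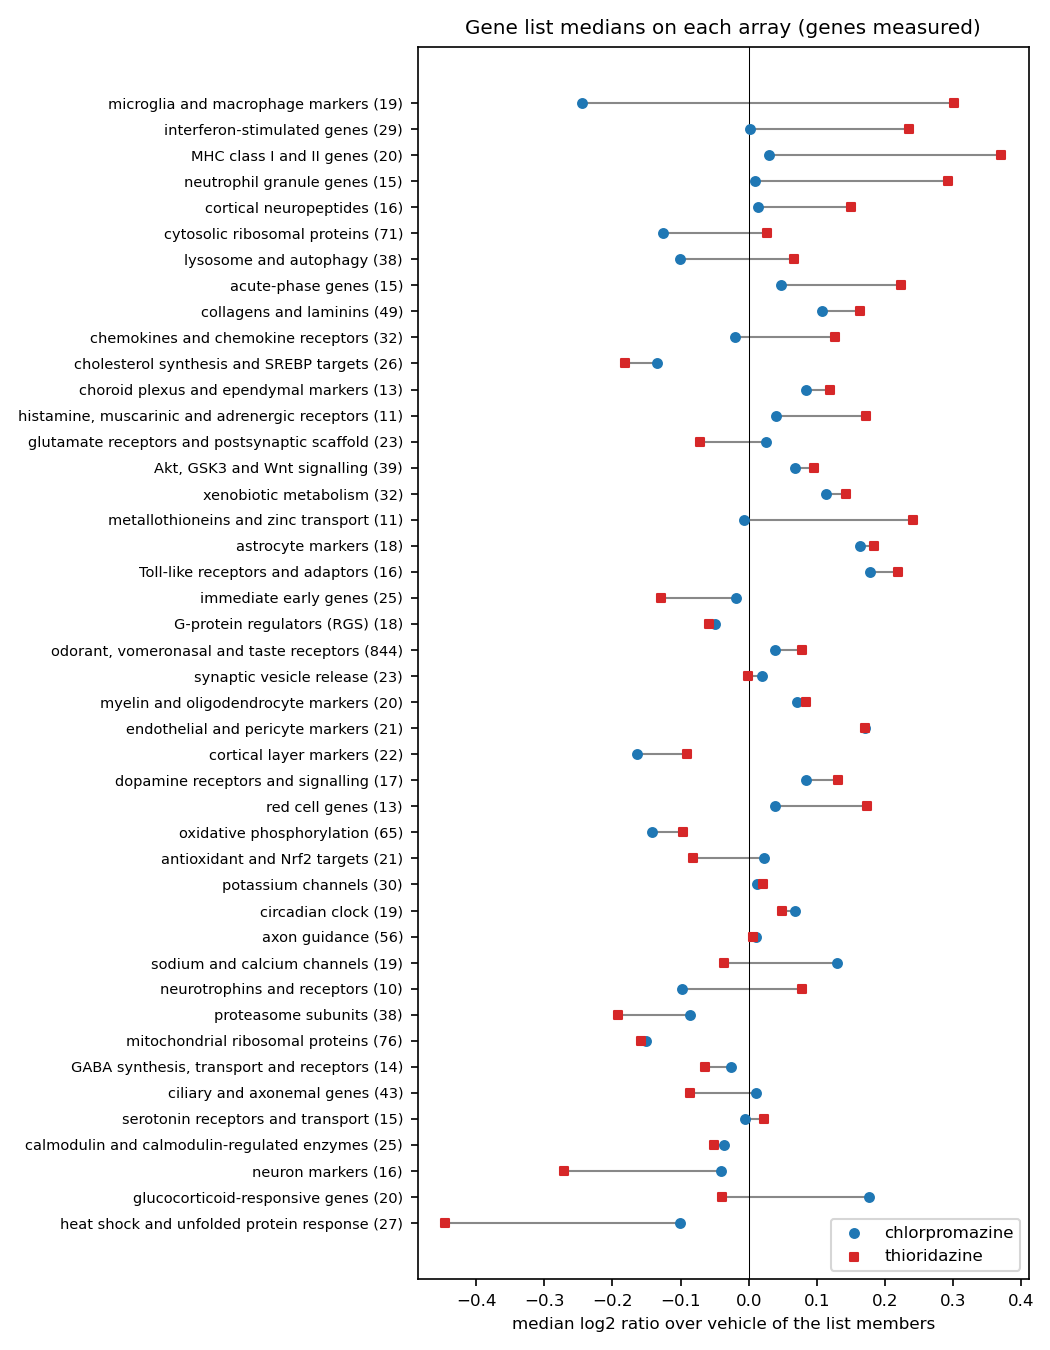
Points are the median log2 ratio over vehicle of the members of each gene list with chlorpromazine (blue circles) and thioridazine (red squares), with the number of genes measured in parentheses, ordered by the median difference. The widest gaps are at both ends, from microglia and macrophage markers (-0.25 and 0.30) to heat shock and unfolded protein response genes (-0.10 and -0.45).

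Microglia are the resident macrophages of the brain, and their markers were lower with chlorpromazine than with thioridazine in 19 of 19 genes measured of 22 listed. Over all genes 52.7% of differences were below 0. The list's median ratio was -0.25 with chlorpromazine and 0.30 with thioridazine, and the median difference was -0.50, with a range from -1.54 to -0.09. Below vehicle were 15 of the 19 with chlorpromazine and 3 with thioridazine. The median was 0.08 with olanzapine and 0.07 with quetiapine, at other doses. With the arrays scaled to 1 spread all 19 were below 0. Not every macrophage gene went this way. Outside the list, the scavenger receptor Cd163 (0.23 and -3.49) and the chemokine Ccl3 (-0.04 and -1.37) were higher with chlorpromazine, each on 1 feature.

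Members at least 2-fold apart numbered 3 of 19, against 4.38% of all genes. Fcer1g, the common gamma chain of Fc receptors, had a ratio of -0.44 with chlorpromazine and 1.10 with thioridazine. C1qa, a chain of the first complement component, stood at -0.72 and 0.76, and Aif1, which encodes the microglial antigen Iba1, at -0.48 and 0.52. All 3 lay below vehicle with chlorpromazine and above it with thioridazine. The lysosomal protease Ctss (-0.52 and 0.40), the complement receptor chain Itgam (-0.44 and 0.30) and the mannose receptor Mrc1 (-0.25 and 0.50) did likewise. The lipid receptor Trem2 (-0.92 and -0.10) and its signalling partner Tyrobp (-0.73 and -0.04) lay below vehicle with both drugs. Among the smaller differences, P2ry12, an ADP receptor, stood at -0.36 and -0.15, Tmem119 at -0.19 and 0.08 and Cx3cr1, the fractalkine receptor, at 0.06 and 0.27. Each microglial marker was read by 1 feature.

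**Figure D3:**
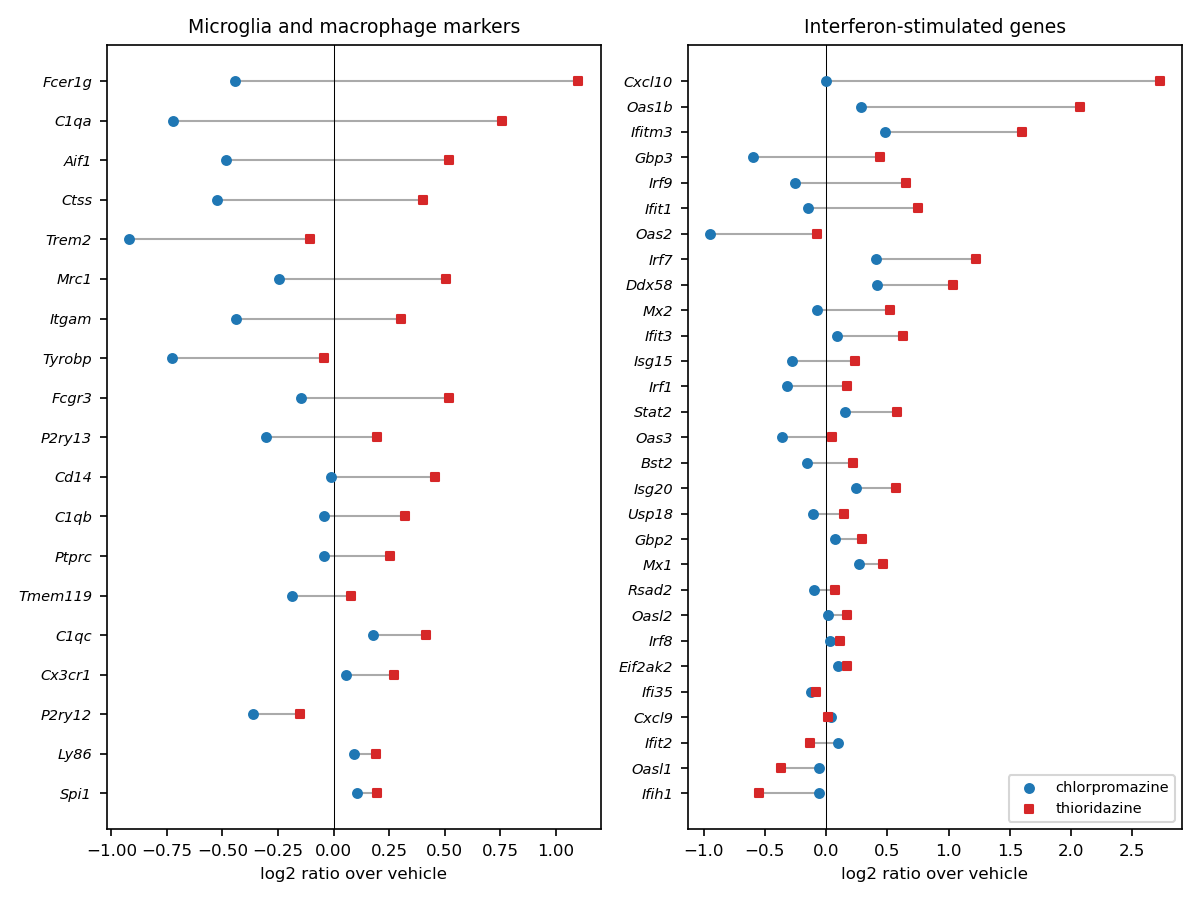
Each row is a gene with its log2 ratio over vehicle with chlorpromazine (blue circle) and thioridazine (red square), ordered by the difference within each list. All 19 microglial markers have the thioridazine point to the right of the chlorpromazine point, as have 25 of the 29 interferon-stimulated genes.

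Interferons induce a set of antiviral genes, many of which carry interferon response elements in their promoters. Of 29 such genes measured of 32 listed, 25 were lower with chlorpromazine than with thioridazine and 4 were higher. The median ratio was 0.00 with chlorpromazine and 0.24 with thioridazine, and the median difference was -0.41. With the arrays scaled to 1 spread the direction of the median was kept. Upstream windows of 3 of these genes are printed as examples of the element, chosen after their values were seen. Cxcl10 and Gbp3 were at least 2-fold apart and Ifit1 was not, and Ifitm3, which was, also carries the element. They are the 250 bases before the RefSeq start on assembly GRCm38.p6, 5' to 3' on the gene's strand, with capitals marking 2 GAAA units with any 2 bases between them, or the complement, 2 TTTC units.
Cxcl10: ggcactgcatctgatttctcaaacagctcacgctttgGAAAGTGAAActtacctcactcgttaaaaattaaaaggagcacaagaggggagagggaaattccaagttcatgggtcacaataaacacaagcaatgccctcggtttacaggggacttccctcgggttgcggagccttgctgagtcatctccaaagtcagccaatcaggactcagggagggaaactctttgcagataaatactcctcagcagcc
Gbp3: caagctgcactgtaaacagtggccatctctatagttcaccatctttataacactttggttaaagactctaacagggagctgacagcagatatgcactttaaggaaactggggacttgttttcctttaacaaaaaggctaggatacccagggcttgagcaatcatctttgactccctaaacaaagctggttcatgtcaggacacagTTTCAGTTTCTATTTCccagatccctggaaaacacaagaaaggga
Ifit1: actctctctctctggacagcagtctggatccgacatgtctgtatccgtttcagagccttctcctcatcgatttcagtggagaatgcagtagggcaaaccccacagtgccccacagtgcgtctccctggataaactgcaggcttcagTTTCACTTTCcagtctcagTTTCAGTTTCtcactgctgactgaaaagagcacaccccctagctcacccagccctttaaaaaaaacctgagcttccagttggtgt
The windows lie at chr5:92348890-92349139, minus strand, for Cxcl10, chr3:142559794-142560043, plus strand, for Gbp3, and chr19:34640639-34640888, plus strand, for Ifit1. In windows of 300 bases around the start, 14 of the 24 measured list members with a RefSeq window held the element on either strand (58.3%), against 3.99% of 27025 genes in the RefSeq table. A match describes the letters and shows no binding.

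Cxcl10, a chemokine for activated T cells, had a ratio of 0.00 with chlorpromazine and 2.72 with thioridazine, and of 0.81 with olanzapine and 1.69 with quetiapine. Oas1b, of the oligoadenylate synthetase family, stood at 0.28 and 2.07, and Ifitm3, a membrane protein that restricts viral entry, at 0.48 and 1.60. In these 3 genes thioridazine was above vehicle by more than 2-fold and chlorpromazine was not. Gbp3, a guanylate-binding protein, was the fourth at least 2-fold apart, at -0.60 and 0.44. Smaller differences in the same direction were those of Ifit1 (-0.15 and 0.75), of the transcription factors Irf9 (-0.26 and 0.65) and Irf7 (0.41 and 1.22), and of Isg15, a ubiquitin-like modifier (-0.28 and 0.24). Ifih1, the RNA sensor Mda5, went the other way, at -0.06 with chlorpromazine and -0.55 with thioridazine. The 4 genes at least 2-fold apart (13.8% of the list, against 4.38% of all genes) were all higher with thioridazine.

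MHC genes present peptides to T cells, and many are interferon-responsive. Of 20 measured, 16 were lower with chlorpromazine than with thioridazine, with a median ratio of 0.03 and 0.37 and a median difference of -0.37. B2m, the light chain of class I molecules, stood at -0.44 and 0.49. H2-Ob, a class II accessory chain, was the only member at least 2-fold apart (5.00%, near the 4.38% of all genes), at 0.69 and 2.23. Class I heavy chains were read by several features. The 3 features of H2-K1 differed by -0.96 to -0.51 around a gene ratio of 0.02 and 0.75. The 10 features of H2-Q7, at 0.19 and 0.84, differed by -0.74 to -0.43. Every feature of both genes lay on the thioridazine side, although class I genes are near-identical copies and a feature may read more than 1 of them. Tap2, the peptide transporter, was above vehicle with both drugs, at 1.65 and 2.39.

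Blood-borne and acute-phase genes are given beside these lists. Neutrophil granule genes were lower with chlorpromazine in 11 of 15, where 52.7% of all genes were lower, with a median difference of -0.32. At least 2-fold apart were 4 of them (26.7%), against 4.38% of all genes. S100a9 and S100a8, the subunits of calprotectin, stood at 0.29 and 2.48 and at 0.03 and 1.77, and with quetiapine at 5.81 and 5.02. Lcn2, an iron-scavenging lipocalin that is also on the acute-phase list, stood at -0.03 and 1.41, and Camp, the cathelicidin precursor, at -0.74 and 0.30. Of the 15 acute-phase genes 12 were lower with chlorpromazine, with a median of -0.14, among them Serpina3n, a protease inhibitor of reactive astrocytes, at 0.20 and 2.07, and Fgb, the fibrinogen beta chain, at -0.42 and 0.61. The 13 red cell genes had a median of -0.02, with 6 higher with chlorpromazine, by up to 0.99, and 7 lower. At least 2-fold apart were 3 of them (23.1%), against 4.38% of all genes, all lower with chlorpromazine. These were the haemoglobin genes Hbb-b2 at -0.29 and 1.16 and Hba-a1 at -0.25 and 0.91, with Alas2, the haem synthesis enzyme of red cells, at 0.04 and 1.16. Their part in the microglial, interferon and MHC differences was not tested.

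Chemokines and Toll-like receptors did not go 1 way. Of 32 chemokines and receptors 21 were lower with chlorpromazine, with a median difference of -0.12. Ccl19, a ligand of Ccr7, stood at -2.53 and -0.95, below vehicle with both drugs, while Ccl3, a macrophage chemokine, stood at -0.04 and -1.37. Among 16 Toll-like receptors and adaptors the median was -0.06. Tlr2 and Tlr1, which form 1 receptor, were lower with chlorpromazine, Tlr1 at -0.63 and 0.45. Tlr8, a sensor of single-stranded RNA, was higher with chlorpromazine at 0.35 and -0.66, as was Traf6.

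Heat shock proteins and chaperones of the endoplasmic reticulum fold proteins and are induced by misfolded ones. Of 27 measured, 22 were higher with chlorpromazine than with thioridazine, 4 were lower and 1 was at 0, where 47.2% of all genes were higher. The list's median ratio was -0.10 with chlorpromazine and -0.45 with thioridazine, and 17 and 24 members respectively lay below vehicle. The median difference was 0.19. With the arrays scaled to 1 spread it was 0.13, and 19 members were higher. With olanzapine and quetiapine, at their own doses, the medians were -0.30 and -0.57. All 4 medians were below vehicle.

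At least 2-fold apart was 1 of the 27 members (3.70%), near the 4.38% of all genes. It was Hspa1a, the stress-inducible Hsp70, at 0.13 with chlorpromazine and -1.49 with thioridazine, with -0.67 for olanzapine and -1.67 for quetiapine. Its near-identical copy Hspa1b may share the feature. Its co-chaperone Dnajb1 stood at -0.15 and -1.09, and the constitutive Hspa8 at -0.23 and -0.74. In the endoplasmic reticulum, Hspa5, the chaperone BiP, stood at 0.05 and -0.43, the disulfide isomerase Pdia3 at 0.04 and -0.62 and Herpud1, of the degradation pathway, at -0.01 and -0.65. In each of these chlorpromazine was nearer to vehicle and thioridazine was below it. Hspb1, a small heat shock protein, stood at 0.09 and 0.04, a difference of 0.04. The 3 features of Hspa4 disagreed, from -1.21 to 0.58.

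The upstream window of Hspa1a is printed as the widest gap of the list, the 250 bases before the RefSeq start on GRCm38.p6 at chr17:34972157-34972406, minus strand, with capitals marking a match to 2 units of the heat shock element (GAANNTTC or TTCNNGAA).
Hspa1a: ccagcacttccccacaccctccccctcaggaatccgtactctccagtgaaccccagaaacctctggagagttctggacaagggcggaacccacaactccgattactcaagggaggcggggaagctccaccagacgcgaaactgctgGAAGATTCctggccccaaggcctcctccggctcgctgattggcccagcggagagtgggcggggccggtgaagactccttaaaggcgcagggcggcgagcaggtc
In windows of 300 bases, 9 of the 24 members with a RefSeq window held this match on either strand (37.5%), against 17.0% of genes in the RefSeq table. The form of 3 alternating units (GAA, TTC and GAA with any 2 bases between, or the complement), which contains the shorter form, was held by 3 members (12.5%), Hspd1, Hspe1 and Hsph1, against 0.662% of genes. Their differences were 0.38, 0.11 and 0.19.

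**Figure D4:**
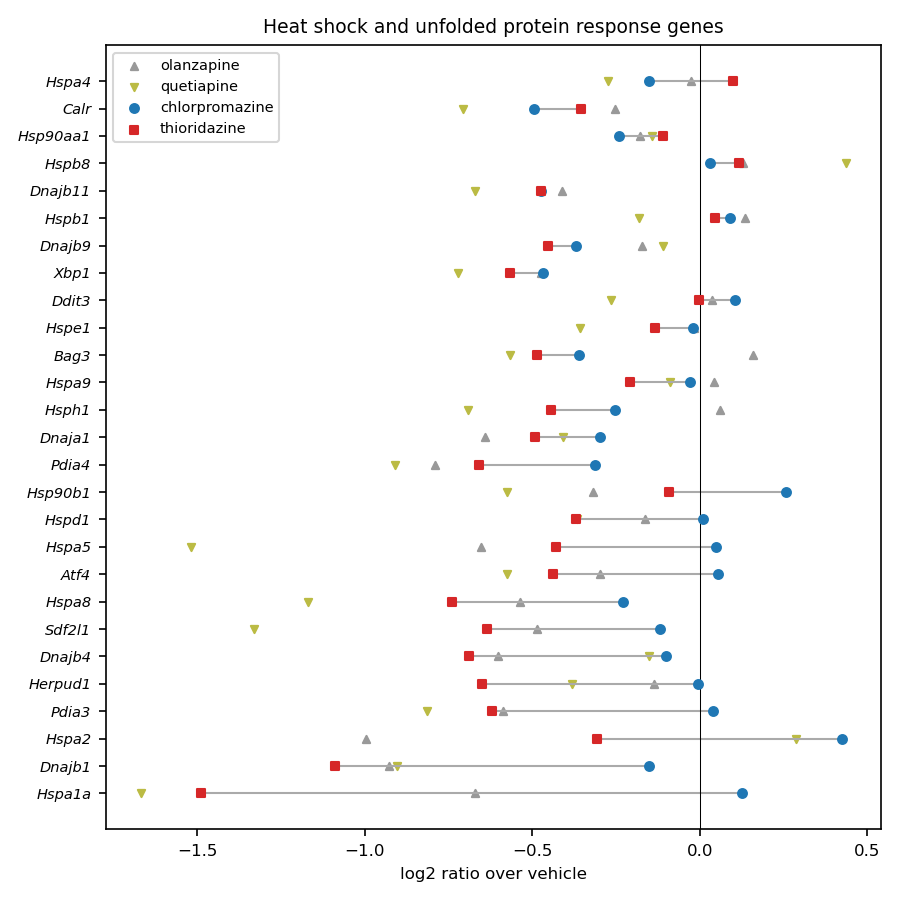
Each row is a heat shock or unfolded protein response gene, with its log2 ratio over vehicle with chlorpromazine (blue circle), thioridazine (red square), olanzapine (grey triangle) and quetiapine (olive triangle), the last 2 at other doses. Thioridazine lies to the left of chlorpromazine in 22 of 27 genes, and Hspa1a at the bottom has the widest gap (0.13 and -1.49).

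The receptors that phenothiazines bind showed small differences for the most part. Drd2, the main target, had a ratio of 0.08 with chlorpromazine and 0.24 with thioridazine, and Drd1 of 0.17 and 0.32 on 2 features. Kcnh2, the mouse gene for hERG, stood at -0.09 and -0.07, and Chrm1, the muscarinic M1 receptor, at -0.15 and -0.28. In these 4 genes the 2 drugs differed by -0.15 to 0.13 on the log2 scale, which without replicates does not show that they act alike. Htr2a, the serotonin 2A receptor, stood at 0.53 and -0.36, and Hrh1, the histamine H1 receptor, at -0.22 and -0.96, both higher with chlorpromazine by less than 2-fold. Adra1a and Cyp2d22 had no value in the comparison.

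None of 17 dopamine genes and none of 11 histamine, muscarinic and adrenergic receptors was at least 2-fold apart. At the 4.38% of all genes, lists of this size may hold none, so these counts are not a result about the receptors. The lists had median differences of -0.02 and -0.08, and the first turned to 0.01 with the arrays scaled to 1 spread. The widest in the first list were Th, the rate-limiting enzyme of dopamine synthesis, at 0.19 and 1.17, and Ppp1r1b, the phosphatase inhibitor DARPP-32, at 0.43 and -0.42. Hrh3, a presynaptic histamine receptor, stood at -0.50 and 0.05. Among 15 serotonin genes, with a median of 0.08, Htr5b (-0.15 and -1.28) and Htr3a, a ligand-gated channel (0.66 and -0.37), were at least 2-fold higher with chlorpromazine. The 2 genes made 13.3% of that list, where 2.49% of all genes were 2-fold higher.

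Calmodulin is bound by phenothiazines in the test tube. Of 25 genes for calmodulin and the enzymes it regulates, 16 were higher with chlorpromazine, with a median difference of 0.09. None was at least 2-fold apart, against 4.38% of all genes, which for 25 genes is near none. Camk2g, a kinase subunit, stood at -0.01 and -0.90, and Nrgn, a postsynaptic calmodulin-binding protein, at -0.10 and -0.82. Ion channels differed gene by gene. Kcna1, the axonal potassium channel Kv1.1, was higher with chlorpromazine at 0.82 and -0.68, whereas Kcna3 (-0.33 and 0.88), the G-protein-gated Kcnj6 (-0.28 and 0.90) and Kcna5 (0.31 and 1.36) were higher with thioridazine, and the median of the 30 potassium channels was 0.00. Cacna1h, a T-type calcium channel, was higher with chlorpromazine at 0.14 and -0.83. Gabbr1, a GABA-B receptor subunit, stood at -1.75 and -0.07. Grik3, a kainate receptor subunit, stood at 0.06 and 1.21.

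Axonal and guidance genes held some of the wider neuronal differences. The neurofilament genes Nefh (0.01 and -1.08) and Nefm (0.38 and -0.70) were the 2 of 16 neuron markers at least 2-fold apart. They made 12.5% of that list, against 4.38% of all genes, and its median was 0.09. Ntn1, which encodes netrin-1, stood at 0.68 and -1.83, its receptor Dcc at -0.03 and -1.90 and Unc5a, also a netrin receptor, at -0.01 and -1.16. With olanzapine and quetiapine, Ntn1 stood at 0.32 and 0.54, Dcc at 2.16 and 0.08, and Unc5a at 0.02 and 0.18. Ntn1, Dcc and Unc5a, each on 1 feature, were lower with thioridazine than with chlorpromazine. They were named because their differences were among the widest of the list, and other netrin receptors are not given here. Sema3b, a semaphorin, was on the other side at -0.40 and 0.71. Over the 56 axon guidance genes the median was 0.02, with 29 differences above 0 and 27 below. Of these genes 4 were at least 2-fold higher and 2 lower, 10.7% of the list against 4.38% of all genes. In the clock list Clock itself stood at -0.03 and -2.25, and the list's median was 0.02.

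Cortical neuropeptides were lower with chlorpromazine in 12 of 16 genes, with a median difference of -0.30. Nmb, neuromedin B, stood at 0.03 and 1.57, Trh at 0.08 and 0.74, Cck, cholecystokinin, at -0.43 and 0.07 and Sst, somatostatin, at -0.30 and 0.08. Each was higher with thioridazine. Cartpt stood at 0.49 and -0.53 and Cort, cortistatin, at 0.03 and -0.95, on the chlorpromazine side.

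Ntng1, which encodes netrin-G1 of axons, was the only 1 of the 48 accessions spotted 10 or more times that was at least 2-fold apart. Its ratio was -0.71 with chlorpromazine and 0.74 with thioridazine over 11 features, whose differences ran from -1.67 to -0.88. With olanzapine it was -0.52 and with quetiapine -0.71. The thioridazine array alone was above vehicle.

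Ntng1, Nmb and Th are also markers of the olfactory bulb, which lies next to the frontal cortex. A list of 39 such markers was therefore drawn up after these values had been seen. Neither its direction nor its share of genes 2-fold apart is independent evidence. Of 36 measured, 30 were lower with chlorpromazine than with thioridazine, with a median ratio of 0.01 and 0.46 and a median difference of -0.52. The median was -0.14 with olanzapine and 0.02 with quetiapine. Fabp7, of radial glia and olfactory ensheathing cells, stood at -1.11 and 1.24, Calb2, calretinin, at -0.12 and 1.79, and Pax6, a factor of granule and periglomerular cells, at -0.12 and 0.98. Of the mitral and tufted cell genes, Eomes stood at 0.04 and 0.85, Tbx21 at 0.10 and 0.60 and Cdhr1 at -0.29 and 0.46. Omp, the marker of olfactory sensory neurons, stood at 0.05 and -0.11. Without the markers on this list the neuropeptide median was -0.28. In the olfactory bulb list 8 genes (22.2%) were at least 2-fold apart, all lower with chlorpromazine, where 1.89% of all genes were 2-fold lower. Ntng1 and Nmb, which had prompted the list, are among the 8. A list of thalamus markers was also added later and shares Ntng1, Calb2 and Zic1 with the olfactory bulb list. Of 22 measured, 16 were lower with chlorpromazine and 5 (22.7%) were at least 2-fold lower. The median difference of that list was -0.13 and the mean -0.30. For the 13 striatum markers the median was -0.15 and the mean 0.08. Their part in the neuropeptide, Th and Ntng1 differences was not tested.

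**Figure D5:**
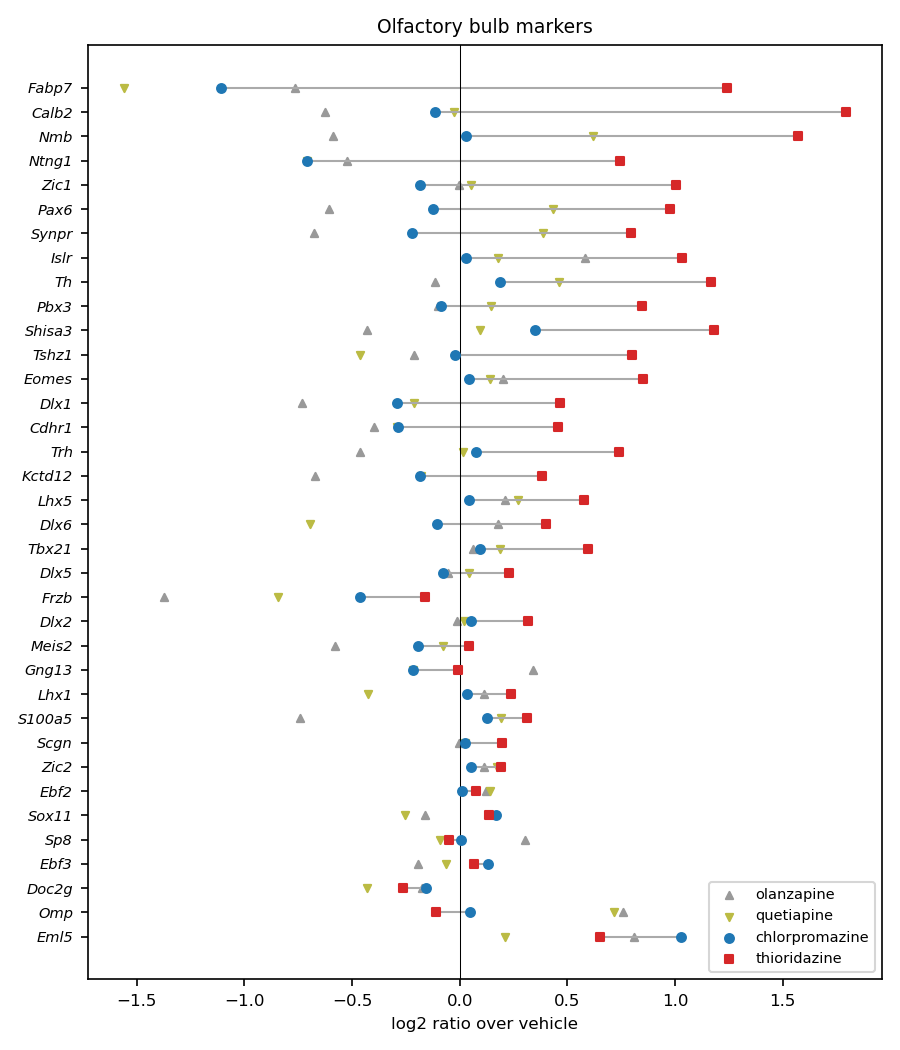
Each row is an olfactory bulb marker with its log2 ratio over vehicle with chlorpromazine (blue circle), thioridazine (red square), olanzapine (grey triangle) and quetiapine (olive triangle), the last 2 at other doses. Thioridazine lies to the right of chlorpromazine in 30 of 36 genes, with Fabp7 (-1.11 and 1.24) the widest.

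Cationic amphiphilic drugs such as these collect in lysosomes and can disturb cholesterol handling. Of 38 lysosome and autophagy genes 25 were lower with chlorpromazine, with a median difference of -0.15. At least 2-fold apart were 3 of them (7.89%), against 4.38% of all genes. Besides Tfeb these were Map1lc3a, the autophagosome protein LC3, at -0.71 and 0.77, and Lipa, lysosomal acid lipase, at -1.28 and 0.15. The 26 cholesterol synthesis genes had median ratios of -0.13 with chlorpromazine and -0.18 with thioridazine. Gene by gene 17 of them were lower with chlorpromazine, with a median difference of -0.12, and of -0.26 with the arrays scaled to 1 spread. Fdps, farnesyl diphosphate synthase, was the only 1 at least 2-fold apart (3.85%, near the 4.38% of all genes), at -0.91 and 0.18. Insig1, a brake on the pathway, stood at 0.30 and -0.53. Of drug transporters, Abcb1a, the P-glycoprotein of the blood-brain barrier, stood at 0.65 and -0.83 and Abcg2 at -0.14 and -1.20, both higher with chlorpromazine. Nr1i3, a xenobiotic receptor, stood at -1.08 and 0.17.

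Markers of astrocytes, oligodendrocytes and vessels had list medians near 0. Median differences were -0.06 for 18 astrocyte, -0.03 for 20 oligodendrocyte and -0.03 for 21 endothelial and pericyte markers, and the astrocyte value was 0.04 with the arrays scaled. The oligodendrocyte mean was 0.18. At least 2-fold apart were 3 oligodendrocyte markers (15.0%), against 4.38% of all genes, and 1 in each of the other lists (5.56% of astrocyte and 4.76% of endothelial and pericyte markers). Of the 3, Ugt8a, which makes the myelin lipid galactosylceramide, stood at 0.65 and -1.95 and Tspan2 at 0.59 and -0.69, while Olig2, a factor of the oligodendrocyte lineage, stood at -0.60 and 0.66. Fgfr3, of astrocytes, stood at 0.76 and 1.82. Aqp1, a water channel of the choroid plexus, stood at 0.40 and 1.82, and 11 of the 13 markers of that tissue were lower with chlorpromazine, with a median of -0.11. Foxp2, of deep cortical layers, stood at -0.16 and 1.23, the only 1 of 22 layer markers at least 2-fold apart (4.55%, near the 4.38% of all genes).

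The 2 drugs also shared values. By the count of genes at least 2-fold apart they were not the closest pair of the series. Chlorpromazine and quetiapine, at unlike doses, had 555 such genes of 16193 (3.43%), against 712 of 16266 (4.38%) for the phenothiazines. The other pairs, also at unlike doses, had larger shares, up to 8.46% for olanzapine and quetiapine. Thioridazine had 5.01% with quetiapine and 5.98% with olanzapine, so by this count chlorpromazine was the drug nearest to it. The wider ratios of the thioridazine array enter the counts of its pairs, and their part was not tested. Genes were ranked by the ratio nearer to vehicle of the 2 phenothiazine arrays. Since both arrays may share a vehicle RNA and a dye bias, these values are given side by side and not tested. Among the highest were Ipo9, an importin, at 1.81 with chlorpromazine and 1.54 with thioridazine, where olanzapine gave 0.06 and quetiapine 0.11. Sdhd, a subunit of mitochondrial complex II, stood at 4.72 and 2.70, with -4.05 for olanzapine and 4.62 for quetiapine on 1 feature. Pirb, an inhibitory receptor for MHC class I, stood at 1.39 and 3.27, with 2.67 and 3.42 for the other drugs. Ipo9 alone of these 3 was near vehicle with both other drugs. Of the 10 highest, 9 were above vehicle on all 4 arrays, the exception being Sdhd. The remaining genes, beside Tap2, were Spats2, Insl6, Tcstv1, the Polycomb gene Pcgf2, Arid5a and Adamtsl3.

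Among the lowest on both arrays were Il1rap, the shared co-receptor of interleukin-1 family receptors, at -2.24 and -3.15, and Tacr3, the neurokinin B receptor, at -1.83 and -1.92. Olanzapine and quetiapine gave -2.41 and -1.66 for Il1rap and -1.89 and -1.54 for Tacr3. Of the 10 genes lowest on both arrays, 8 were below vehicle on all 4, so such values were not limited to the phenothiazines. Med17, a Mediator subunit, stood at -1.44 and -1.63 and, with the other drugs, at 0.80 and -0.15. Arhgap11a stood at -1.54 and -1.75, with -2.01 for olanzapine and 0.12 for quetiapine. The other 6, below vehicle with each drug, were Arhgap32, Lmod2, Sucnr1, the succinate receptor, Figla, Nxf2 and Sptlc3.

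Genes of large complexes differed little between the drugs. The 71 cytosolic ribosomal protein genes had a standard deviation of the difference of 0.24, against 0.47 over all genes. None was at least 2-fold apart, against 4.38% of all genes, yet 55 were lower with chlorpromazine, with median ratios of -0.13 and 0.03. The 76 mitochondrial ribosomal protein genes lay at -0.15 and -0.16 with the 2 drugs. The 65 genes of oxidative phosphorylation lay at -0.14 and -0.10, with Sdhd the only 1 at least 2-fold apart (1.54%). The 38 proteasome genes lay at -0.09 and -0.19. The 25 immediate early genes, which mark recent neuronal activity, had a median difference of -0.05. None was at least 2-fold apart, which is near the 4.38% of all genes in a list of this size. Ier3 was the widest of them, at 0.60 and -0.33.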

How the data were processed

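The deposited table holds 1 value per feature and array for 4 arrays. Per the labels' protocols, images were read with Agilent Feature Extraction 7.1 and dyes were normalised with LOWESS after a rank consistency filter. The deposited values were taken as log10 ratios of cyanine 5 over cyanine 3, that is drug over vehicle. Scale and direction are likely and not stated, and the authors' centring is unknown, with a median of 0 on both phenothiazine arrays.

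Values of exactly 0 (367 with chlorpromazine, 484 with thioridazine) were treated as missing, ratios were converted to log2 and features of a gene were averaged, with Python 3.11.15, pandas 2.3.3 and numpy 2.4.6. Of 22393 features, 18218 had 1 symbol in the platform annotation, 16 had several and 4159 had none. By Entrez identifier 18175 took the current RefSeq symbol and 43 kept the platform's. Features with several symbols or none were left out. The calculation was tested on simulated data. The number of arrays limits the precision.

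Each drug is 1 group of 1 array and 1 pair was compared at matched dose, so no test was made. A fold of 2 was used as the threshold. The pair, the gene lists and the naming rule were chosen with earlier results of these data known. The rule names the 10 genes highest and lowest in the difference, the same among genes with several features, the 10 highest and lowest on both arrays, the 2 widest members of each list with those 2-fold apart (at most 4), and 7 targets. Clone-style names and sensory receptors were left out. Other members named beside them, and the olfactory bulb, thalamus and striatum lists, were chosen after their values were seen. Promoter windows are from RefSeq. Alternatives were other thresholds, log2 reading, zeros kept, other feature handling, and arrays centred or scaled.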

Additional observations from a re-analysis of the deposited data

Results flagged for a closer look

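Features without a gene name in the annotation stood outside the comparison of genes. Of 3844 such features measured with both phenothiazines, 557 (14.5%) were at least 2-fold apart, against 823 of 17912 named features (4.59%). The sequences of the unnamed features were not used here.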

How the results depend on the processing

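At 1.5-fold, 2128 genes were apart (1214 higher with chlorpromazine, 914 lower), and 1131 were that far from vehicle with chlorpromazine and 2186 with thioridazine. At 3-fold these counts were 222 (159 and 63), 48 and 209. With values read as log2 they were 15 (11 and 4), 3 and 8. With arrays scaled to 1 spread, 528 genes were 2-fold from vehicle with chlorpromazine and 467 with thioridazine, while the counts of genes apart stayed within 1.5 times. Among genes with 2 or more features 23 were apart (17 and 6). Keeping zeros, taking the median of features, counting every feature and centring the arrays left all 5 counts within 1.5 times. Scaling turned the sign of 6 list medians that lay between -0.06 and 0.05, and counting every feature turned that of xenobiotic metabolism (-0.07 to 0.04). The mean had the other sign in 10 lists with medians between -0.08 and 0.08, the myelin list (0.18) among them, and in the added striatum list (0.08). It was over 1.5 times further from 0 in 18 lists, among them the neutrophil (-0.49), acute-phase (-0.36), clock (0.22), heat shock (0.33), serotonin (0.24), sodium and calcium channel (0.20) and added thalamus (-0.30) lists, and nearer to 0 by as much in 6, neuropeptides (-0.20) among them. The cause was not tested. Scn1a differed by 2.08 with the median of features and by 1.46 with every feature counted. Without genes on the microglia list the lysosome, chemokine and Toll-like receptor medians were -0.15, -0.12 and -0.01. No paired analysis was possible because each drug has 1 array and the labels carry no replicate numbers. Without intensities, the part of spots near background is unknown.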

Other observations

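The 20 glucocorticoid-responsive genes had a median ratio of 0.18 with chlorpromazine and -0.04 with thioridazine, and 13 of them were higher with chlorpromazine. Klf9, a hormone-induced transcription factor, stood at 0.43 and -0.32 on 2 features, and Sgk1, a steroid-induced kinase, at 0.53 and -0.13. Cebpd, a factor of acute-phase transcription, was above vehicle with both drugs, at 0.86 and 1.69. Of 844 odorant, vomeronasal and taste receptor genes, 13 were at least 2-fold higher and 6 at least 2-fold lower with chlorpromazine. Together these were 2.25% of the list, below the 4.38% of all genes. The standard deviation of the difference was 0.39 in the list and 0.47 over all genes.

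Of 49 collagen and laminin genes 33 were lower with chlorpromazine, with a median difference of -0.13. Col17a1, a collagen of hemidesmosomes, stood at 0.58 and -1.92, and Col15a1, of vascular basement membrane, at -0.44 and 0.81. Among ciliary genes Bbs1, of the BBSome, stood at 2.02 and 0.41 and Dnah5, an axonemal dynein, at -0.51 and -1.90. In Wnt and Akt signalling, Dkk1, a secreted Wnt antagonist, stood at 0.20 and 1.25 and Pik3r1, the regulatory subunit of phosphoinositide 3-kinase, at 0.75 and -0.27.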
